A study of Mus musculus with 4 samples.

Results

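Genes of the spinal cord vasculature and its barrier were followed, namely Cldn5, Ocln, Tjp1, Pecam1, Cdh5, Slc2a1, Mfsd2a, Abcb1a, Pdgfrb and Rgs5. They were chosen by name, as genes known for endothelial cells, pericytes or the junctions and transporters of the blood-spinal cord barrier. The rule uses no measured value, but earlier results of these data were known when the genes were chosen. The 10 genes are 10 of the 18674 gene names in the deposited table. All 10 had a mean of at least 1 RPKM (reads per kilobase of transcript, relative to that library's total reads) over the 4 libraries, a limit that 12987 names passed.

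Lumbar spinal cord RNA had been sequenced from wild type (WT) mice and from G93A mice, a model of amyotrophic lateral sclerosis in which mutant human SOD1 is expressed from a transgene (H1 high-expresser strain, B6/SJLF1 background). Spermidine (SD), a polyamine, or PBS as vehicle had been given for 30 days, 4 times per week, and the mice were 100 days old at euthanasia. The methods on SD dosing give 5 mg/kg by intraperitoneal injection and name saline as the vehicle. The 4 libraries were WT and G93A with vehicle (WT vehicle, G93A vehicle) and with SD (WT + SD, G93A + SD), 1 per condition, and the number of animals behind each is not named. The transgene is driven by the human SOD1 promoter and is active in many cell types, and the tissue was whole lumbar cord rather than isolated vessels. With 1 library per condition differences could not be set against a spread between replicates, so none was tested and p-values are left out. Each library had its own sequencing lane, so lane and condition cannot be told apart.

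The capillaries of brain and spinal cord are lined by endothelial cells sealed to each other by tight junctions, in which claudins and occludin span the membrane and scaffold proteins tie them to actin. These cells carry glucose and lipids inward through dedicated transporters, pump many drugs back into the blood and keep vesicle transport low. Pericytes wrap the capillaries within a shared basement membrane and are held there by PDGF-B signalling, and astrocyte endfeet cover the outer face.

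The depth was not given in the table and was estimated from the spacing of low values at 3.68e+07 and 3.82e+07 read pairs in WT cord (vehicle, then SD) and at 3.79e+07 and 3.86e+07 in G93A cord. Markers of glia and neurons differed between the genotypes. The summed level of the microglia and macrophage list was 88.1 and 80.0 RPKM in WT vehicle and WT + SD and 472 and 471 RPKM in G93A vehicle and G93A + SD. The astrocyte list summed to 1146, 1089, 3465 and 4182 RPKM in the same order, and the neuron list to 1762, 1770, 1058 and 881 RPKM. In whole tissue a lower level of a gene can come from fewer cells of a type or from less RNA per cell, and these cannot be told apart.

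Cldn5 encodes claudin 5, the main claudin of brain and cord endothelium. Its level was 12.4 RPKM with vehicle and 10.3 RPKM with SD in WT cord, against 12.3 and 6.55 RPKM in G93A cord, from an estimated 647, 559, 660 and 358 read pairs. The vehicle libraries were nearly level, and G93A + SD stood below the other libraries. Ocln, which encodes occludin, had 2.36 RPKM with vehicle and 2.69 RPKM with SD in WT cord, against 2.74 and 2.11 RPKM in G93A cord. It was thus higher in WT + SD and G93A vehicle, and lower in WT vehicle and G93A + SD. Tjp1 encodes ZO-1, the scaffold under tight junctions, which astrocytes, neurons and ependymal cells also make. Its level was 18.8 RPKM with vehicle and 20.0 RPKM with SD in WT cord, against 30.8 and 31.9 RPKM in G93A cord, so both G93A libraries stood above both WT libraries.

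Cldn5 lies at chr16:18776847-18778262 on the plus strand (GRCm38, GENCODE M21) and has 1 exon of 1416 bases, with no other annotated gene overlapping it. Tjp1 lies at chr7:65296165-65527781 on the minus strand, and its 2 listed transcripts have 27 and 28 exons. It overlaps the pseudogene Gm44795 on the other strand and Gm44794 and Gm44792 on its own. Ocln lies at chr13:100496507-100552718 on the minus strand. Because Cldn5 and Tjp1 had the largest differences among the 10, the 250 bases before their RefSeq start (GRCm38.p6) are shown 5′ to 3′ on the strand of the gene. That of Cldn5 is chr16:18776597-18776846 and that of Tjp1 is chr7:65371245-65371494. Capitals mark the letters CGGAAG, an ETS family motif, read here as the reverse complement.
Cldn5: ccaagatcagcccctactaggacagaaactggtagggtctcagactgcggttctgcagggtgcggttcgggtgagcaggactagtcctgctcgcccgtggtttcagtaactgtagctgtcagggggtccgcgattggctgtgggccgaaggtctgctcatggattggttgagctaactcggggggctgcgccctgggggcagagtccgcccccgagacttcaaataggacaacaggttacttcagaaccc
Tjp1: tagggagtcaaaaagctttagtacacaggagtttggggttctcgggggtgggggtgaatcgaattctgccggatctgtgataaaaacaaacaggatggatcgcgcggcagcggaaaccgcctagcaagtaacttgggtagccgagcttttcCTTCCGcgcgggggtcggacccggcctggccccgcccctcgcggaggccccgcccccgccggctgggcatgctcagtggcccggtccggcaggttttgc
The marked letters in Tjp1 begin 99 bases before the start, and the ETS letters occur in 13.6% of all 32851 windows of this length before RefSeq starts, on either strand. The same search used ACAATG for SOX factors, CTTTGAT for TCF/LEF factors and ACGTG or GCGTG for the hypoxia response, which occur in 10.7%, 3.21% and 38.6% of the windows. None of the 4 motifs has its letters in the Cldn5 window. Among the 7 of the 10 genes with an entry, the ETS letters occur in Tjp1, the hypoxia response letters in Mfsd2a, Ocln and Slc2a1, and the SOX and TCF/LEF letters in none. The windows are GC-rich, with 59.6% G and C in Cldn5 and 63.2% in Tjp1.

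Pecam1 encodes CD31, an adhesion molecule at contacts between endothelial cells that platelets and leukocytes also carry. It had 5.04 RPKM with vehicle and 4.96 RPKM with SD in WT cord, against 4.65 and 4.35 RPKM in G93A cord. Cdh5 encodes VE-cadherin, the cadherin of endothelial adherens junctions. Its level was 3.41 RPKM with vehicle and 2.92 RPKM with SD in WT cord, against 2.51 and 2.39 RPKM in G93A cord. Both genes were thus highest in WT vehicle and lowest in G93A + SD, within a narrow range for Pecam1 and a wider range for Cdh5. Pecam1 lies at chr11:106654217-106750628 on the minus strand. Cdh5 lies at chr8:104101625-104144511 on the plus strand and is overlapped by the antisense gene Gm29682, and with no strand setting stated for the counting, reads in that overlap cannot be assigned with certainty.

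Slc2a1, Mfsd2a and Abcb1a carry out transport at the barrier. Slc2a1 encodes GLUT1, the glucose transporter of barrier endothelium, which astrocytes also use. It had 42.3 RPKM with vehicle and 39.6 RPKM with SD in WT cord, against 49.1 and 46.1 RPKM in G93A cord. The G93A libraries stood above the WT libraries, and within each genotype the SD library was slightly lower. Mfsd2a encodes the lysophospholipid transporter that brings docosahexaenoic acid across the endothelium and restrains transcytosis. Its level was 17.8 RPKM with vehicle and 19.6 RPKM with SD in WT cord, against 16.9 and 16.7 RPKM in G93A cord, a narrow range with WT + SD on top. Abcb1a, which encodes a P-glycoprotein that pumps drugs out of the endothelium, had 6.79 RPKM with vehicle and 6.67 RPKM with SD in WT cord, against 6.24 and 5.70 RPKM in G93A cord. It was lower in the G93A libraries than in the WT libraries by a small margin.

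Slc2a1 lies at chr4:119108711-119137983, where it overlaps Mir1957a and the antisense genes Gm12867 and Gm12868, and Mfsd2a lies at chr4:122946850-122961188. Abcb1a lies at chr5:8660077-8748575 beside its close paralog Abcb1b, and overlaps Gm42684 and Gm42686. Of the 4945 stretches of 53 bases (a read's length) in the Abcb1a transcript, 878 (17.8%) also occur in another gene's transcript, 729 of them in Abcb1b. The level of Abcb1a is therefore uncertain. Abcb1b had 0.85 RPKM with vehicle and 0.82 RPKM with SD in WT cord, against 2.17 and 2.56 RPKM in G93A cord, opposite to Abcb1a in its direction between genotypes. Of the other 9 genes, Slc2a1 alone had such stretches (53 of 3208, or 1.65%, shared with Gm12868).

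Pdgfrb and Rgs5 mark pericytes. Pdgfrb encodes the receptor through which PDGF-B holds pericytes on the capillary, and smooth muscle cells and fibroblasts also carry it. It had 2.89 RPKM with vehicle and 2.28 RPKM with SD in WT cord, against 3.61 and 3.45 RPKM in G93A cord, highest in the G93A libraries and lowest in WT + SD. Rgs5, a regulator of G protein signalling abundant in pericytes, had 22.7 RPKM with vehicle and 19.5 RPKM with SD in WT cord, against 22.4 and 20.5 RPKM in G93A cord. The vehicle libraries were nearly level and both SD libraries were lower. Rgs5 lies at chr1:169655501-169695813 on the plus strand and Pdgfrb on chromosome 18, with no other annotated gene overlapping either.

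**Figure D1:**
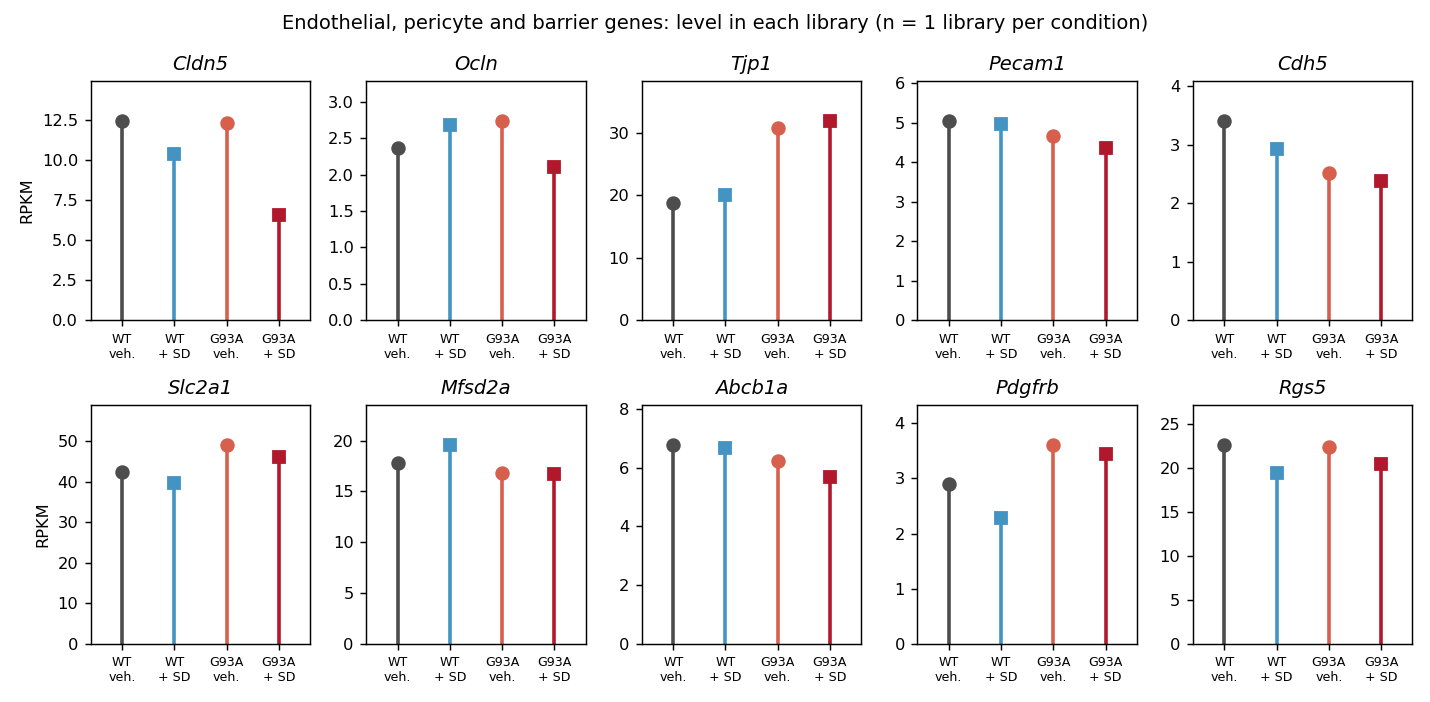
Level of each of the 10 genes in RPKM (vertical axis, from 0, with its own scale in each panel) in the 4 libraries (horizontal axis), 1 library per condition, circles for vehicle and squares for SD. Cldn5 stands lowest in G93A + SD at 6.55 RPKM, and Tjp1 stands at 30.8 and 31.9 RPKM in the G93A libraries against 18.8 and 20.0 RPKM in the WT libraries.

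On the RPKM scale, which is per length and so allows levels of different genes to be compared, Slc2a1 was the highest of the 10 in every library, with a mean of 44.3 RPKM. Tjp1 (mean 25.4 RPKM), Rgs5 (21.3 RPKM) and Mfsd2a (17.8 RPKM) took ranks 2 to 4 in an order that differed between libraries. Cldn5 (10.4 RPKM), Abcb1a (6.35 RPKM) and Pecam1 (4.75 RPKM) held ranks 5, 6 and 7 in all 4 libraries. Pdgfrb (3.06 RPKM), Cdh5 (2.81 RPKM) and Ocln (2.48 RPKM) filled ranks 8 to 10, again with a changing order. Neighbours within those groups of changing order crossed each other between libraries and were not separated beyond that spread.

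The first comparison asked how the vascular genes stand in G93A cord without treatment. G93A vehicle differed little from WT vehicle for most of them. A gene was called higher or lower where it differed at least 1.5-fold on the log2(RPKM + 0.1) scale, used for all differences here. This scale slightly understates the change of genes with low levels. Folds beside them are ratios of the RPKM values themselves. Tjp1 was called higher, with a log2 difference of 0.71 (1.64-fold), and no gene of the 10 was called lower. Among all 12987 names 13.1% were called higher and 4.34% lower, so 1 of 10 called higher is near the share of all names. Cdh5 had the lowest difference of the 10, at -0.43. Of the remaining genes, Pdgfrb stood at 0.31, Slc2a1 and Ocln at 0.21 each, and Cldn5, Rgs5, Mfsd2a, Pecam1 and Abcb1a lay between -0.12 and -0.015. Over the 10 genes, 4 differences were above 0 and 6 below, and their median was -0.016 against 0.050 for all names.

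Markers of other cell types differed between the same libraries. The astrocyte list was 1146 RPKM in WT cord and 3465 RPKM in G93A cord given vehicle, with 5 of its 6 genes called higher, and the microglia list had 7 of 9 genes called higher. Of the ependyma and choroid plexus list 3 of 4 genes were called higher, of the blood list 4 of 5 and of the fibroblast list 2 of 4. In the blood list Hba-a1 and Hba-a2 had nearly equal values in every library, as did Hbb-b1 and Hbb-b2. Its 5 genes are therefore not 5 separate values in any comparison. All 6 neuron genes and 4 of 5 oligodendrocyte genes were below 0, with medians of -0.63 and -0.23. The part of these cells in the Tjp1 difference was not tested. Of the 12 other tested names within 1 Mb of Tjp1, 5 were above 0 and 7 below, with a median difference of -0.088 and 2 called higher.

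With SD in both genotypes, G93A + SD against WT + SD had Tjp1 again called higher (0.67, 1.59-fold) and Cldn5 called lower (-0.65, 1.58-fold). In this comparison 15.8% of all names were called higher and 7.85% lower, so 1 of 10 in each direction is again near the share of all names. Relative to the endothelial identity list Cldn5 stood at -0.40 and was not called. Of the other cell types, 4 of 6 neuron genes were called lower, and all 5 blood genes were below 0. All 5 oligodendrocyte genes were below 0 too, with 1 called lower and a median of -0.55. Of the astrocyte list 5 of 6 genes and of the microglia list 8 of 9 were called higher. The part of these cell types was not tested. Pdgfrb, at 0.58, missed the limit with the pseudocount although its RPKM values differed 1.51-fold. Ocln stood at -0.34, Cdh5 at -0.28, Mfsd2a at -0.23, Abcb1a at -0.22 and Pecam1 at -0.19. Slc2a1 stood at 0.22 and Rgs5 at 0.069. Here 4 of the 10 differences were above 0 and 6 below, with a median of -0.21 against 0.047 for all names.

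The comparison of SD with vehicle in WT cord gave no call among the 10 genes, where 0.732% of all names were called higher and 1.16% lower. The lowest differences were those of Pdgfrb (-0.33), Cldn5 (-0.26), Rgs5 (-0.22) and Cdh5 (-0.22). The highest were those of Ocln (0.18), Mfsd2a (0.14) and Tjp1 (0.092). Slc2a1 was at -0.097, and Abcb1a and Pecam1 were at -0.025 and -0.024. Over the 10 genes, 3 differences were above 0 and 7 below, with a median of -0.061 against 0.015 for all names. Blood markers differed between the same libraries, since the haemoglobin gene Hba-a1 stood at 10.2 RPKM with vehicle and 20.8 RPKM with SD, and all 5 tested genes of the blood list were called higher in WT + SD. Their part in the differences of the vascular genes was not tested.

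In G93A cord, SD against vehicle had Cldn5 as its single call, lower in G93A + SD. The log2 difference was -0.90 (a 1.88-fold ratio of RPKM), and its rank from the lowest was 43 among the 12987 names. In this comparison 1.24% of all names were called higher and 0.932% lower, against 0 and 1 of the 10 genes. Ocln was next lowest of the 10 at -0.36. Rgs5 and Abcb1a were at -0.13, Pecam1 at -0.096, Slc2a1 at -0.092, Cdh5 at -0.071, Pdgfrb at -0.066 and Mfsd2a at -0.013. Tjp1, at 0.050, was the only gene of the 10 above 0, and the median of the 10 was -0.094 against 0.0086 for all names. Relative to the median of a list of other endothelial identity genes, the median of the 10 turned to 0.089, and Cldn5 and Ocln were the genes still below 0. This comparison shares the G93A vehicle library with the first and the G93A + SD library with the second.

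**Figure D2:**
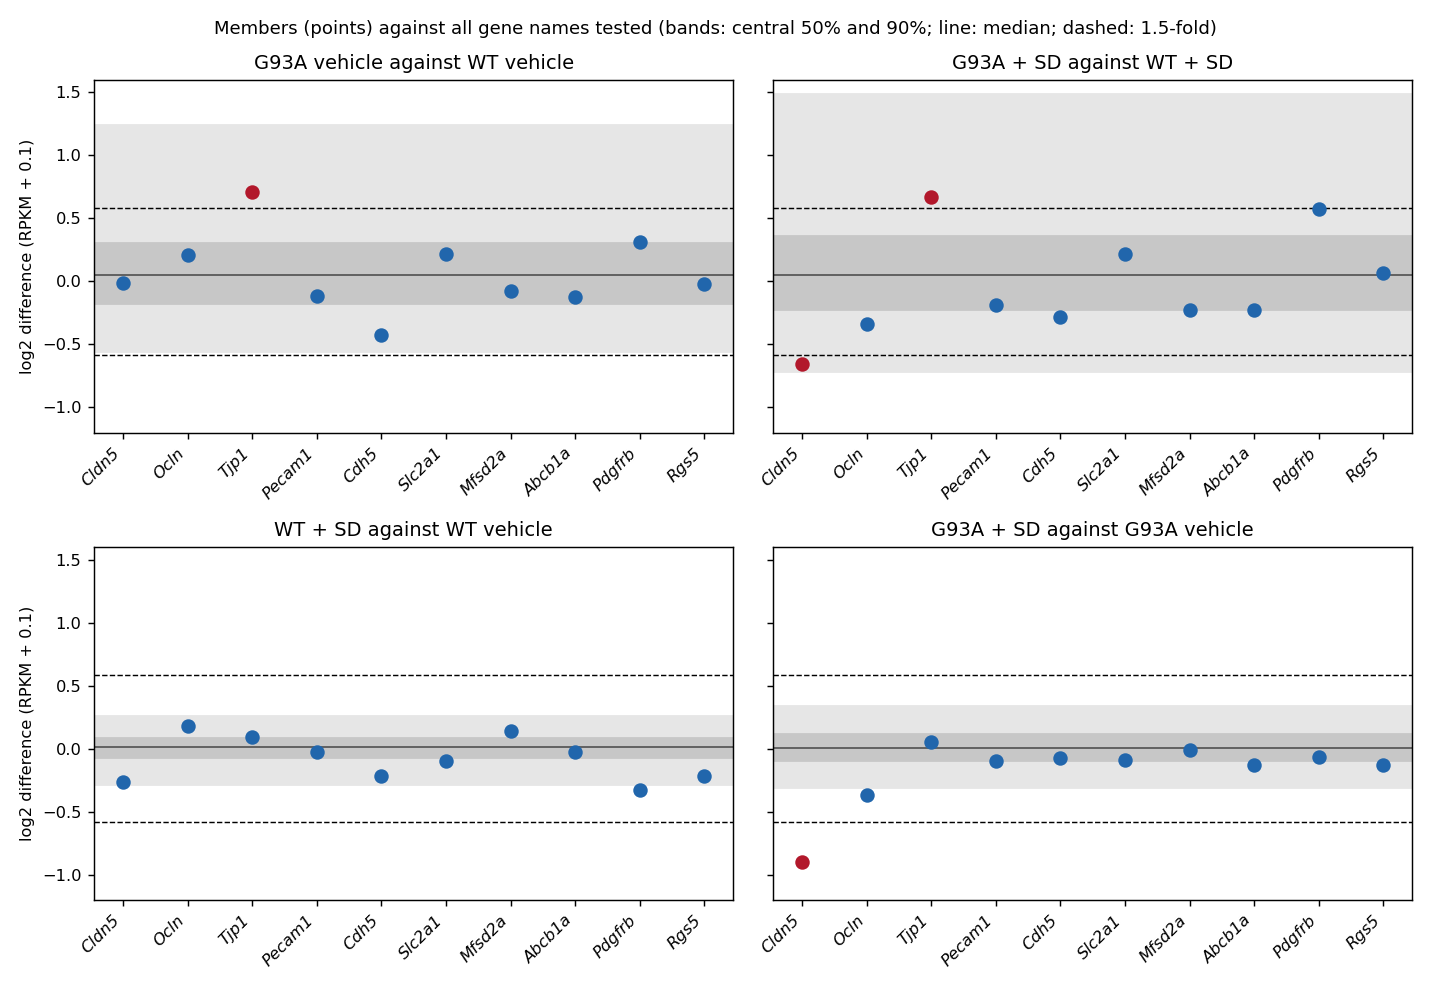
Log2 difference of RPKM + 0.1 (vertical axis) of the 10 genes (horizontal axis) in the 4 comparisons, with grey bands for the central 50% and 90% of all names tested, a line at their median and dashed lines at 1.5-fold. Red points passed 1.5-fold: Tjp1 at 0.71 and 0.67 in the genotype comparisons, and Cldn5 at -0.65 between genotypes under SD and at -0.90 for SD in G93A, where the central 90% of names lay between -0.31 and 0.34.

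The levels of Cldn5 were also set against those of Pecam1, Cdh5, Mfsd2a and Abcb1a in the same libraries. The ratio of Cldn5 to Pecam1 was 2.46 with vehicle and 2.09 with SD in WT cord, and 2.64 and 1.51 in G93A cord. Its ratio to Cdh5 was 3.65, 3.54, 4.89 and 2.74 in the same order, and its ratio to Mfsd2a 0.697, 0.527, 0.729 and 0.392. Against each of these genes, and against Abcb1a (1.83, 1.55, 1.97 and 1.15), Cldn5 was lowest in G93A + SD and highest in G93A vehicle. The SD difference of Cldn5 was 0.64 lower on the log2 scale in G93A (-0.90) than in WT (-0.26), and over all names 1.22% had a lower value of this contrast.

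Transcript composition and position were looked at for Cldn5. Its transcript has 60.5% G and C, in the highest of 10 deciles of GC content, and the names of that decile had a median of -0.089 for SD in WT and of -0.086 for SD in G93A. Relative to that median the Cldn5 difference in G93A was still past 1.5-fold. Of the 20 tested neighbours within 1 Mb of Cldn5, 9 were above 0 and 11 below in G93A + SD against G93A vehicle, with differences from -0.33 to 0.21 and none called.

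The lowest level among the 4 libraries was found in G93A + SD for 6 of the 10 genes (Cldn5, Ocln, Pecam1, Cdh5, Mfsd2a and Abcb1a), against 30.2% of all names tested. WT vehicle held the highest level for 5 of the 10, against 18.8% of all names. Among the 24 tested genes of an endothelial identity list that holds none of the 10, G93A + SD was the lowest library for 18 and WT vehicle the highest for 11. G93A + SD was also lowest for all 5 oligodendrocyte genes and 4 of 6 neuron genes, and highest for 5 of 6 astrocyte genes.

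The endothelial identity list was described in each comparison. In G93A + SD against G93A vehicle, 21 of its 24 genes were below 0 and 3 above, with a median of -0.18 and no call. Lists of other cell types went both ways. All 5 oligodendrocyte genes were below 0 (median -0.20) and 4 of 6 neuron genes (median -0.21, with 2 called lower). Of the ependyma and choroid plexus list 3 of 4 genes were below 0 (median -0.39, none called). Above 0 were 5 of 6 astrocyte genes (median 0.23), 6 of 9 microglia genes (median 0.10), all 5 blood genes (median 0.14) and 3 of 4 fibroblast genes (median 0.24). The astrocyte and fibroblast lists each had 1 gene called higher. Their part in the values of the endothelial genes was not tested. Egfl7, a secreted endothelial protein, had 10.3 RPKM with vehicle and 9.64 RPKM with SD in WT cord, against 8.13 and 5.72 RPKM in G93A cord, and was picked out here after its values were seen. Sox18, an endothelial transcription factor, had 1.82, 2.19, 1.17 and 0.80 RPKM in the same order. Kdr, the main receptor for VEGF-A, had 2.27, 2.35, 1.63 and 1.27 RPKM. These genes were lowest in G93A + SD, and Cldn5 lay below every gene of this list in the SD comparison within G93A.

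**Figure D3:**
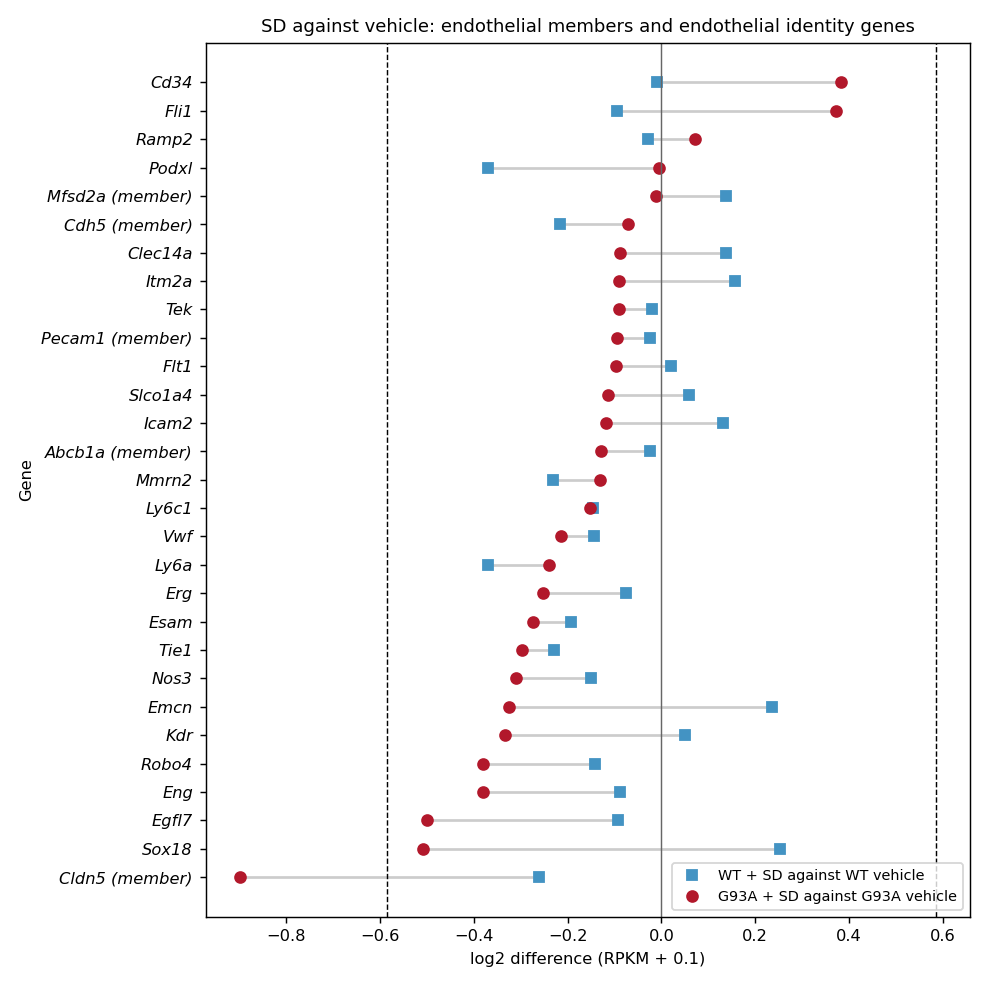
Log2 difference of RPKM + 0.1 between SD and vehicle (horizontal axis) in WT (squares) and in G93A (circles) for 5 endothelial genes of the 10 (labelled member) and the 24 tested endothelial identity genes (vertical axis, ordered by the G93A value), with dashed lines at 1.5-fold. Cldn5 has the lowest G93A value at -0.90, and Cd34 and Fli1 the highest at 0.38 and 0.37.

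Between genotypes without treatment, the same list had 7 genes above 0 and 17 below, with 2 called higher, 1 called lower and a median of -0.10. The 3 lowest were Sox18 (-0.59, just past the limit), Kdr (-0.45) and Mmrn2 (-0.35). Higher in G93A vehicle were Cd34 (8.62 RPKM in WT cord and 46.1 RPKM in G93A cord given vehicle), Fli1 (0.90 and 2.22 RPKM) and Vwf, von Willebrand factor (1.29 and 1.94 RPKM). Cd34 and Fli1, the genes called higher, are also known from blood cell precursors and other blood-lineage cells, and the microglia list differed in the same direction. Under SD, 6 genes of the list were above 0 and 18 below between genotypes, with Sox18, Kdr, Egfl7 and Emcn called lower (Emcn being named after its values were seen), Cd34 and Fli1 called higher and a median of -0.25. With a pseudocount of 1 RPKM the genes called lower numbered 0 with vehicle and 2 under SD, so that the calls of these low genes depend on it. In WT, SD against vehicle left 8 above 0 and 16 below with no call and a median of -0.082.

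Other junction genes were described in the same way. Of 12 tested genes of tight and adherens junctions, 9 were above 0 and 3 below in G93A vehicle against WT vehicle, with 3 called higher and a median of 0.22. The genes called higher were F11r, which encodes the junctional adhesion molecule JAM-A (2.78 RPKM in WT cord and 7.49 RPKM in G93A cord given vehicle), Jam2 (16.1 and 27.4 RPKM) and Ctnna1, alpha-catenin (27.7 and 44.4 RPKM). Below 0 were Cgnl1, paracingulin (17.2 and 13.7 RPKM), Lsr and Afdn. Under SD, 10 of the 12 were above 0 between genotypes, with 4 called higher, 1 lower and a median of 0.37. In G93A + SD against G93A vehicle 9 were above 0 and 3 below, with no call and a median of 0.12. Many of these genes are made by most cells of the cord. Cldn3, another claudin, was near 0 in every library, at 0.02, 0.03, 0.16 and 0.05 RPKM.

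Among the transport and transcytosis genes, in G93A vehicle against WT vehicle 14 of 17 tested genes were above 0, 8 were called higher, none was called lower, and the median was 0.54. The 3 highest were Abcb1b, at 1.25 on the log2 scale, Cav2, a caveolin (14.3 RPKM in WT cord and 32.8 RPKM in G93A cord given vehicle), and Slc16a1, the lactate transporter MCT1 (22.6 and 47.3 RPKM). Lower were Tfrc, the transferrin receptor (39.4 and 29.8 RPKM), and, by small margins, Plvap and Slc22a8. Plvap marks fenestrated vessels and had 3.81 RPKM with vehicle and 4.42 RPKM with SD in WT cord, against 3.46 and 3.32 RPKM in G93A cord. Under SD, 11 of the 17 genes were above 0 and 6 below between genotypes, with 9 called higher and a median of 0.63. In WT, SD against vehicle gave 8 above 0, 9 below and 1 call, Cavin1, lower at -0.59 and named for that call after its values were seen. In G93A it gave 10 above 0 and 7 below with no call.

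**Figure D4:**
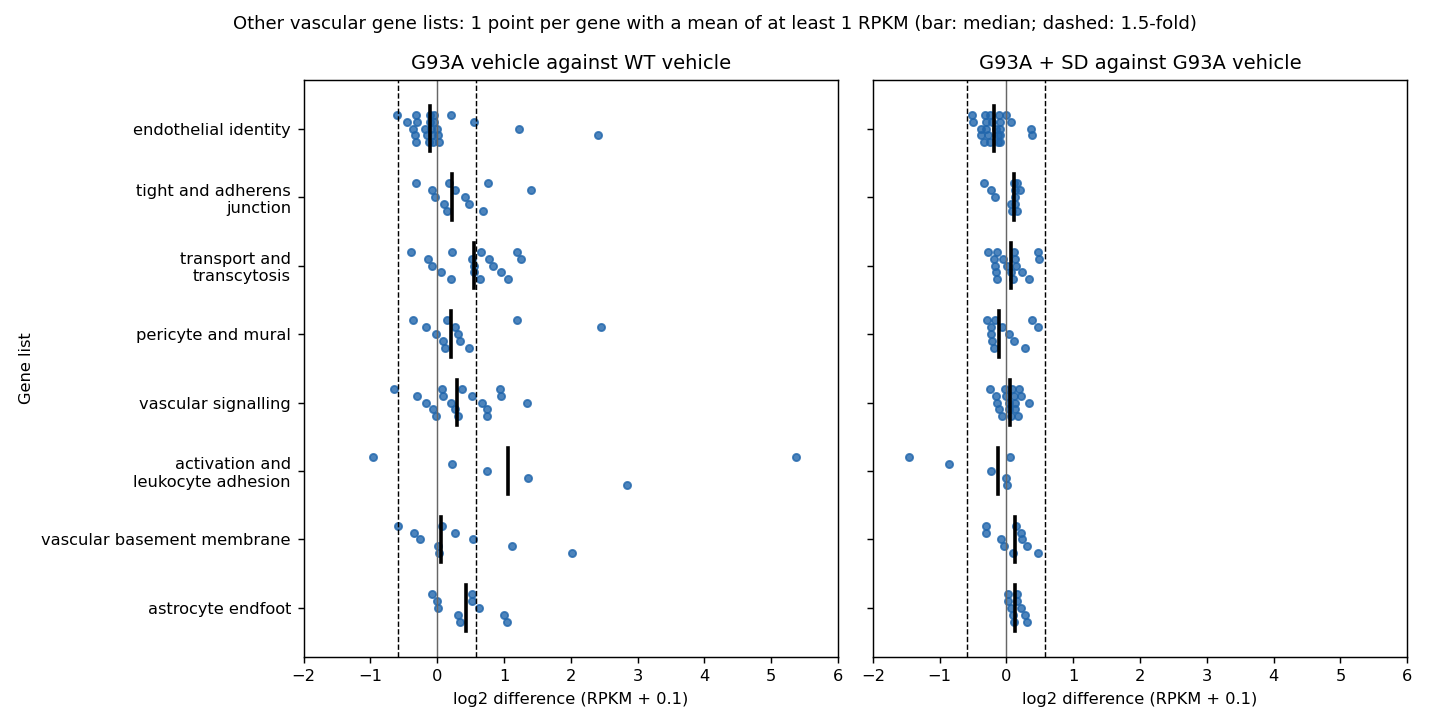
Log2 difference of RPKM + 0.1 (horizontal axis) of each gene with a mean of at least 1 RPKM in 8 vascular gene lists (vertical axis), for genotype without treatment (left) and SD in G93A (right), with bars at list medians and dashed lines at 1.5-fold. The transport list has a median of 0.54 on the left, the endothelial identity list has medians of -0.10 and -0.18, and 2 genes of the activation list lie below 1.5-fold on the right.

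Pericyte and mural genes other than Pdgfrb and Rgs5 stood mostly above 0 between genotypes and were split under SD. In G93A vehicle against WT vehicle 9 of 12 tested genes were above 0 and 3 below, with 2 called higher and a median of 0.21. Tagln, a smooth muscle actin-binding protein, had 2.48 RPKM with vehicle and 4.01 RPKM with SD in WT cord, against 14.0 and 19.4 RPKM in G93A cord. Kcnj8, a potassium channel subunit of pericytes, had 1.72, 1.83, 4.04 and 3.56 RPKM in the same order. These were the genes called higher, while Notch3 stood at 0.47, Abcc9, the partner subunit of Kcnj8, at -0.016, Mcam at -0.17 and Zic1 at -0.36. Other smooth muscle genes of the list did not share the size of the Tagln difference. Acta2 had 1.66 RPKM in WT cord and 2.03 RPKM in G93A cord given vehicle and was not called. Myh11 (0.72 and 0.53 RPKM), Cnn1 (0.12 and 0.08 RPKM) and Des (0.29 and 0.52 RPKM) did not pass the limit of 1 RPKM. Under SD the 12 genes split 6 and 6 between genotypes, with 4 called higher. In G93A + SD against G93A vehicle 5 were above 0 and 7 below, with no call and a median of -0.12. In WT they split 6 and 6, and Tagln was called higher in WT + SD (0.67). Pdgfb, the ligand of Pdgfrb, had 2.78 RPKM with vehicle and 2.45 RPKM with SD in WT cord, against 3.63 and 3.96 RPKM in G93A cord, so ligand and receptor were both lowest in WT + SD and both higher in the G93A libraries.

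Ligands and receptors of vascular signalling numbered 18 tested genes. In G93A vehicle against WT vehicle 13 were above 0 and 5 below, with 6 called higher, 1 lower and a median of 0.29. Vegfa, the growth factor that drives vessel growth and permeability, was the gene called lower, with 14.1 RPKM with vehicle and 15.0 RPKM with SD in WT cord, against 8.95 and 8.83 RPKM in G93A cord. Adgra2, which encodes GPR124, a co-receptor for Wnt7 ligands, stood at -0.31 and Vegfb at -0.17. Highest were Angpt1, the ligand of the Tie2 receptor (3.47 RPKM in WT cord and 8.96 RPKM in G93A cord given vehicle), Nrp1 (5.87 and 11.5 RPKM) and Lrp5, a Wnt co-receptor (1.69 and 3.32 RPKM). In neither SD comparison was a gene of this list called, with medians of -0.0053 in WT and 0.053 in G93A.

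Genes of endothelial activation and leukocyte adhesion had the largest median genotype difference of the 8 vascular lists. Of 6 tested genes, 4 were called higher and 1 lower in G93A vehicle against WT vehicle, and the median was 1.06. Ch25h and Icam1 were below 1 RPKM in both WT libraries and passed the limit of 1 RPKM only through the G93A libraries. The count, the median and the place among the lists therefore partly follow from that limit. With no filter on low values, 5 of 9 genes were called higher. Icam1 had 0.91 RPKM with vehicle and 0.93 RPKM with SD in WT cord, against 7.20 and 6.12 RPKM in G93A cord, and Vcam1 had 7.83, 8.70, 20.3 and 21.2 RPKM. Both encode adhesion molecules for leukocytes, which microglia and astrocytes can also make. Ch25h, the cholesterol 25-hydroxylase, had 0.16 RPKM in WT cord and 10.5 RPKM in G93A cord given vehicle. Selplg (8.92 and 15.0 RPKM) was the other gene called higher. The selectin genes Sele and Selp of this list were at or below 0.12 RPKM in every library. They and Lrg1 did not pass the limit. The part of microglia and other cells in these values was not tested. Mmp9, a matrix protease, was called lower, with 2.61 RPKM with vehicle and 2.26 RPKM with SD in WT cord, against 1.30 and 0.67 RPKM in G93A cord. All 6 neuron genes were below 0 between the same vehicle libraries. Among them Chat had 9.83 RPKM with vehicle and 8.57 RPKM with SD in WT cord, against 6.55 and 4.33 RPKM in G93A cord. The part of neurons in the values of Mmp9 was not tested.

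Mmp9 was also called lower in G93A + SD against G93A vehicle, as was Ackr1, which stood lower than Cldn5 in that comparison. Ackr1, the venular chemokine receptor also known as DARC, was picked out after its values were seen. It had 20.4 RPKM with vehicle and 13.0 RPKM with SD in WT cord, against 23.8 and 8.64 RPKM in G93A cord, lower under SD in both genotypes, with log2 differences of -0.65 in WT and -1.45 in G93A. It overlaps Cadm3 on the same strand by 493 bases, so its level is uncertain. Cadm3, a neuronal adhesion gene, had 66.7, 63.3, 48.3 and 43.1 RPKM in the same order, a smaller difference of -0.16 under SD in G93A.

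The vascular basement membrane list had 7 of 10 tested genes above 0 in G93A vehicle against WT vehicle, with 2 called higher and a median of 0.053 against 0.050 for all names. Nid1, nidogen 1, was lowest (6.33 RPKM in WT cord and 4.20 RPKM in G93A cord given vehicle) and its paralog Nid2 highest (0.55 and 2.55 RPKM). Lamb2, a laminin chain, was the other gene called higher (4.22 and 9.28 RPKM), while Lamb1 and Col4a2 stood at -0.35 and -0.26. In WT + SD against WT vehicle 9 of the 10 genes were below 0, with no call and a median of -0.15, and in G93A 6 were above 0 and 4 below. Under SD, 6 were above 0 and 4 below between genotypes, with 4 called higher, 1 lower and a median of 0.29. The astrocyte endfoot list had 8 of 10 genes above 0 between genotypes without treatment, with 3 called higher and a median of 0.42. Mlc1 (79.7 and 165 RPKM in WT and G93A vehicle), the water channel gene Aqp4 (160 and 319 RPKM) and Slc1a3 (32.7 and 50.4 RPKM) were called higher, and Kcnj10 and Slc1a2 stood at -0.073 and -0.0051. In G93A + SD against G93A vehicle all 10 endfoot genes were above 0, with no call and a median of 0.13, opposite in direction to the endothelial identity list.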

How the data were processed

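RNA of 4 lumbar cord libraries was analysed from 1 table that the authors deposited, with 1 value column per condition. The values deposited by the authors were read as RPKM, which neither the header nor the methods name. The methods name 53 bp reads, STAR on GRCm38 (mm10; also in the submitters' processing notes) and HTSeq, without saying how RPKM was obtained, and the table has 23750 rows of RefSeq transcripts. The 3 ratio columns hold the authors' comparisons and were not used. Rows of a name were averaged (3257 names have several). Differences used log2(RPKM + 0.1) on names with a mean of at least 1 RPKM, and a call meant at least 1.5-fold. Genes such as Ch25h, Icam1, Fli1, Abcb1b and Nid2 were below 1 RPKM in both WT libraries. They passed this limit only through the G93A libraries, so counts of list genes called higher partly follow from it. With 1 library per condition no test was run. Depth was estimated from low values on transcript lengths known for 97.0% of rows, and no interval was derived.

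The members and lists were chosen with earlier results of these data known. Of 186 list genes, 5 matched by an older symbol and 3 were not found. Named were all 10 genes, up to 3 highest and 3 lowest genes of each list in G93A vehicle against WT vehicle, and Plvap, Vcam1, Icam1, Pdgfb, Vegfa, Cldn3, Abcb1b and Kdr, with the markers of each cell type list. Egfl7, Emcn, Cavin1, Ackr1 and Cadm3 lie outside this rule and were named after their values were seen. The same holds for Selplg, Sele, Selp, Lrg1, Acta2, Myh11, Cnn1 and Des. RefSeq windows used the 250 bases before a start and left out the 50 after it. Alternatives were pseudocounts of 1 RPKM and none, no filter, a mean of at least 5 RPKM, median-ratio scaling, the highest or the sum of rows, and a 2-fold limit. Differences relative to the endothelial identity list or to names of like GC content (known for 97.8% of tested names) were added after seeing the data. The tools were numpy 2.4.6, pandas 2.3.3 and matplotlib 3.10.9 under Python 3.11.15, and the calculations were tested on simulated data.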

Additional observations from a re-analysis of the deposited data

Results flagged for a closer look

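Ocln, Mfsd2a and Rgs5 had differences of opposite sign in 2 settings of the same contrast. None of these pairs was tested, since each value rests on 1 library a side. Ocln differed between SD and vehicle by 0.18 on the log2 scale in WT and by -0.36 in G93A. The same 4 values of Ocln give a genotype difference of 0.21 with vehicle and of -0.34 with SD. Its level is low (2.11 to 2.74 RPKM, from an estimated 330 to 422 read pairs). Mfsd2a differed between SD and vehicle by 0.14 in WT and by -0.013 in G93A. Rgs5 differed between genotypes by -0.017 with vehicle and by 0.069 with SD.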

How the results depend on the processing

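Of 344 log2 differences of the 10 genes under the alternatives, 340 kept their side of the 1.5-fold limit. The sign turned in 16, of which 15 were relative to the endothelial identity list and 1 relative to names of like GC content (Cldn5 in G93A vehicle against WT vehicle, to 0.019). None of the 16 was a called difference, and the largest of them in size had been -0.23 (Mfsd2a in G93A + SD against WT + SD). The counts of called genes fell to 0 with a 2-fold limit for Tjp1 in both genotype comparisons and for Cldn5 in both comparisons that had called it. In G93A + SD against WT + SD, 2 genes were called higher with no pseudocount or with the sum of rows, because Pdgfrb then stood at 0.60 and 0.59. Relative to the endothelial identity list, Pdgfrb stood at 0.82 (2 called higher) and Cldn5 at -0.40 (0 called lower) in that comparison. Against that list the medians of the 10 genes became 0.086 between genotypes with vehicle, 0.045 between genotypes with SD and 0.089 for SD in G93A, where Cldn5 was still called lower. With a mean of at least 5 RPKM, 6 of the genes were left and the median in G93A + SD against WT + SD was -0.078. Of 640 counts over the lists, 564 stayed within 1.5 times their value. No paired analysis was possible because each condition has 1 library, so there are no numbered replicates to pair. A model with genotype and SD as additive terms was not run. With 1 library per condition no library could be left out. Depth limits most the genes with few estimated read pairs. In G93A + SD these were Ocln (330), Cldn5 (358), whose transcript has 1416 bases, and Cdh5 (368). Pdgfrb had its fewest in WT + SD (471).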

Other observations

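Summed levels of other marker lists (WT with vehicle, WT with SD, then G93A likewise) were 4146, 4405, 3458 and 2997 RPKM for oligodendrocytes and 34.8, 69.7, 52.6 and 56.8 RPKM for blood. In the same order they were 19.4, 22.0, 37.5 and 36.2 RPKM for ependyma and choroid plexus and 13.3, 13.8, 16.0 and 21.5 RPKM for fibroblasts and meninges.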
